A study of Mus musculus with 7 samples.

Results

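Heat shock proteins and other molecular chaperones were followed across arthritic mouse ankles that had been given the microRNA miR-17-5p. The group holds 10 genes, chosen by symbol from the 27179 genes of the deposited table: the inducible and constitutive cytosolic chaperones Hspa1a, Hspa1b, Hspa8, Hsp90aa1, Hsp90ab1, Hsph1, Dnajb1 and Hspb1, the endoplasmic reticulum (ER) chaperone Hspa5 and the mitochondrial chaperonin Hspd1. All 10 were found in the table. The ankles came from DBA1 mice, all with collagen-induced arthritis, in which immunisation against collagen inflames the joints. They received an injection into the joint of a lipoplex, a lipid carrier, that held either a miR-17-5p mimic (n = 4, replicates 1, 2, 4 and 5) or an irrelevant control microRNA (n = 3, replicates 2, 3 and 5). The whole joint without skin was frozen and its RNA sequenced, so that bone, cartilage, synovium, muscle, marrow and fat all contribute, and the labels give no age and no time after injection. Whether each ankle was taken from a different mouse is likewise unstated, and the p-values below measure the spread between these samples.

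Chaperones bind unfolded or newly made proteins, keep them from clumping and help them fold. Hsp70 proteins take up clients delivered by J-domain partners, exchange nucleotide with the help of factors such as Hsp110, and can pass clients to Hsp90, while Hsp60 folds proteins inside a closed chamber in mitochondria. Heat and other protein damage activate heat shock factors, which bind heat shock elements in the promoters of inducible chaperone genes. The unfolded protein response raises the chaperones of the ER when secreted proteins accumulate there. In inflamed joints several of these proteins are also studied as autoantigens.

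The sequence of the microRNA and of promoter stretches is given here because the results below refer to them. The mature mouse miR-17-5p (RefSeq, GRCm38.p6, chr14:115043684-115043706, plus strand) is shown with its seed, bases 2 to 8, in capitals. Elements found in the 250 bases before a RefSeq start site are in capitals in the lines that follow it, each written 5′ to 3′ on the strand of its gene.
mmu-miR-17-5p: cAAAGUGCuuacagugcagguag
Hspa1a, chr17:34972243-34972270, minus strand: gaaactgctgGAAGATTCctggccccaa
Hspa1b, chr17:34959325-34959352, minus strand: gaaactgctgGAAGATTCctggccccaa
Hsph1, chr5:149636352-149636379, minus strand: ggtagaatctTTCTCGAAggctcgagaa
Hspb1, chr5:135887792-135887839, plus strand: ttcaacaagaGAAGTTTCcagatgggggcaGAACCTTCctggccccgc
Hspd1, chr1:55088049-55088086, minus strand: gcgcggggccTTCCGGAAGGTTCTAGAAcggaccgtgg
Hspa5, chr2:34772015-34772053, plus strand: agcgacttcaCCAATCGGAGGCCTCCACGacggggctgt

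A promoter entry was found for 7 of the 10 genes, and Hspa8, Hsp90aa1 and Hsp90ab1 had none. The heat shock element was searched on both strands as pairs of units, GAANNTTC or TTCNNGAA, which 12.8% of all 32851 promoters of the same length hold. It was present in 5 of the 7: Hspa1a, Hspa1b, Hsph1, Hspb1 and Hspd1. The percentages here count promoter entries, while a gene counted if any of its entries matched, and the 7 genes had 10 entries. The matches of Hspa1a and Hspa1b lie in nearly identical promoters. A run of 3 units, GAANNTTCNNGAA or TTCNNGAANNTTC, which contains the pair, is rarer, in 0.466% of promoters, and only Hspd1 of the 7 held one. Hspd1 held 2 such runs that overlap, which together span 4 units and are the capitals above. They lie at chr1:55088059-55088076, at positions -144 to -127 from the Hspd1 start, and the same bases lie at positions -89 to -72 from the start of Hspe1, the co-chaperonin gene that is read the other way from the same promoter. The ER stress element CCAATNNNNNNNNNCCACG, held by 0.113% of promoters, was in that of Hspa5 only. Dnajb1 held none of these letters in this window. A match is a description of the sequence and was not tested as a binding site.

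No chaperone of the 10 carried a match to the miR-17-5p seed. The letters GCACTTTA, GCACTTT and CACTTTA were searched in the longest annotated 3′ UTR of each gene (GENCODE release M21), which ran from 83 bases in Hspa8 to 1834 bases in Dnajb1. The number of genes with a match was 0 of 10, against 2671 of 12495 tested genes with a UTR (21.4%).

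Depth ran from 27465276 to 31118975 assigned reads per library, with 13130 to 13470 genes at 1 FPKM or more (FPKM, reads scaled by transcript length and by the depth of the library, which allows levels to be compared between genes of different length). The 10 genes together took 0.243%, 0.276%, 0.270% and 0.273% of the reads in mimic libraries 1, 2, 4 and 5, against 0.296%, 0.275% and 0.301% in control libraries 2, 3 and 5. Most of these reads came from Hsp90ab1, Hspa5 and Hspa8. Control replicates 2 and 5 had the highest shares and mimic replicate 1 the lowest. In what follows, the values of a gene are given in this order of replicates. Genes defining the tissue were present in both groups: summed over lists of 6 or 7 markers, cartilage reached 748 to 883 FPKM in mimic ankles and 678 to 804 FPKM in control ankles, and bone and osteoclasts 2487 to 2661 FPKM in mimic ankles and 2659 to 2792 FPKM in control ankles. Synovial lining and fibroblasts reached 8485 to 8931 FPKM in mimic ankles and 7830 to 8738 FPKM in control ankles, and macrophages 1127 to 1510 FPKM in mimic ankles and 1255 to 1429 FPKM in control ankles. Most of the synovial sum was Col1a1 (7055 to 7535 FPKM in mimic ankles and 6672 to 6846 FPKM in control ankles). Only 2 of the 6 synovial markers had a higher mean in mimic ankles. Most of the cartilage sum was Comp (634 to 789 FPKM in mimic ankles and 583 to 728 FPKM in control ankles). The osteoclast genes Ctsk and Acp5 made up most of the bone and osteoclast sum, and like Ocstamp had lower means in mimic ankles. The other 4 of those 7 markers, Bglap, Ibsp, Dmp1 and Sost, had higher means there. C1qa, C1qb and C1qc made up most of the macrophage sum and had higher means in mimic ankles, while Cd68, Adgre1, Csf1r and Mrc1 had lower ones. In skeletal muscle transcripts the libraries differed widely. The 12 muscle markers summed to 3161, 10212, 5433 and 11614 FPKM in mimic ankles and to 8042, 3835 and 1392 FPKM in control ankles. In bulk tissue, fewer cells of a type and less RNA per cell cannot be told apart.

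None of the chaperones passed the test between mimic and control ankles. The test was limma on log2(FPKM + 0.5), with p-values adjusted over all 13418 genes whose mean reached 1 FPKM, and a fold change on that scale understates the change of low genes. Of the 10 genes 9 passed this filter, Hspa1a being under it. At an adjusted p of 0.05, 0 of the 9 were called, as were 0% of all genes tested (0 of 13418, with 2356 genes under an unadjusted p of 0.05). The mean was lower in mimic ankles for 8 of the 9 and higher for 1, Hspb1, and the median log2 fold change was -0.082, beside -0.0063 over all genes. At an unadjusted limma p of 0.05, 2 of the 9 were lower in mimic ankles (Hspd1 and Hsp90aa1) against a background of 10.1% of genes, and 0 were higher against 7.48%. In either direction the background was 17.6%. In 1 of the 9, Hspd1, every mimic library lay below every control library, as in 8.84% of all genes tested.

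**Figure D1:**
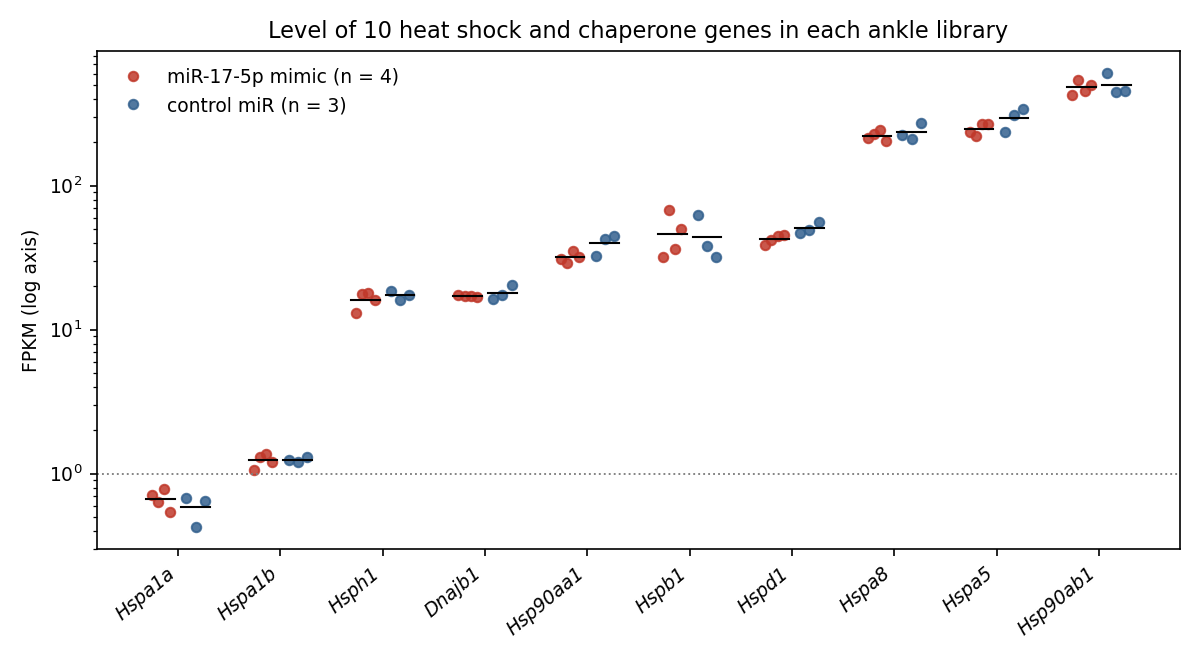
FPKM of the 10 genes on a log axis, 1 point per ankle library (mimic left, control right within each gene) with a line at the group mean and a dotted line at 1 FPKM. Hspa1a and Hspa1b sit near the dotted line in all 7 libraries and Hsp90ab1 lies between 426 and 603 FPKM.

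The inducible and the constitutive cytosolic Hsp70 genes stood far apart in level. Hspa1a and Hspa1b, the stress-inducible Hsp70 copies, lie next to each other at chr17:34969359-34972156 and chr17:34956429-34959238 (GRCm38, minus strand). Hspa1a was at 0.707, 0.632, 0.780 and 0.541 FPKM in mimic ankles and at 0.678, 0.429 and 0.649 FPKM in control ankles, from 44 to 64 reads in mimic and 33 to 56 reads in control libraries. Hspa1b was at 1.06, 1.32, 1.37 and 1.2 FPKM in mimic ankles and at 1.25, 1.21 and 1.30 FPKM in control ankles. The groups overlapped for both genes. Among the genes tested, which all averaged at least 1 FPKM, Hspa1b was more abundant than 2.86%. Hspa8, the constitutive Hsp70 of the cytosol, was more abundant than 98.1% of them. Hspa8 was at 213, 227, 244 and 205 FPKM in mimic ankles and at 224, 210.2 and 275 FPKM in control ankles, again with overlap. Per length, Hspa8 exceeded the sum of the inducible pair by 113 to 121 times in mimic libraries and by 116 to 140 times in control libraries.

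Reads of Hspa1a and Hspa1b are hard to assign. Of the 75-base windows of the transcripts, 52.7% of those of Hspa1a occur in Hspa1b and 55.8% of those of Hspa1b in Hspa1a, and how reads that map to both were counted is not given in the sources used here. Their promoters are nearly the same. In the 250 bases before the start, 247 are identical and 3 differ, which are C44T, T47C and T249G from Hspa1a to Hspa1b, counted from 1 at the 5′ end of the window. The levels of each copy, and of the pair, are therefore uncertain if shared reads were dropped. Summed over the pair, which does not depend on how shared reads were split, the level was 1.76, 1.95, 2.15 and 1.74 FPKM in mimic ankles and 1.93, 1.64 and 1.96 FPKM in control ankles. With limma the pair differed by 0.04 on the log2 scale (SE 0.10, adjusted p = 0.865), and the 95% interval of the fold ran from 0.868 to 1.21. The direction turned under several alternative settings.

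The Hsp70 partners Dnajb1 and Hsph1 also overlapped between groups. Dnajb1, the J-domain protein that delivers clients to Hsp70, was at 17.29, 17.05, 17.19 and 16.99 FPKM in mimic ankles, which differed among themselves by less than 1 FPKM, and at 16.3, 17.4 and 20.4 FPKM in control ankles. The 3 control values enclosed the 4 mimic values. The limma interval of the Dnajb1 fold ran from 0.842 to 1.08 (adjusted p = 0.659). Hsph1, an Hsp110 protein that exchanges nucleotide on Hsp70, was at 13.0, 17.6, 18.0 and 16.1 FPKM in mimic ankles and at 18.6, 16.1 and 17.6 FPKM in control ankles. The groups overlapped, with mimic replicate 1 lowest of all 7 (-0.11 on the log2 scale with an SE of 0.12, limma adjusted p = 0.622). Hspa8 itself had a log2 fold change of -0.08 (± 0.11 SE; adjusted p = 0.706 in the same limma test).

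**Figure D2:**
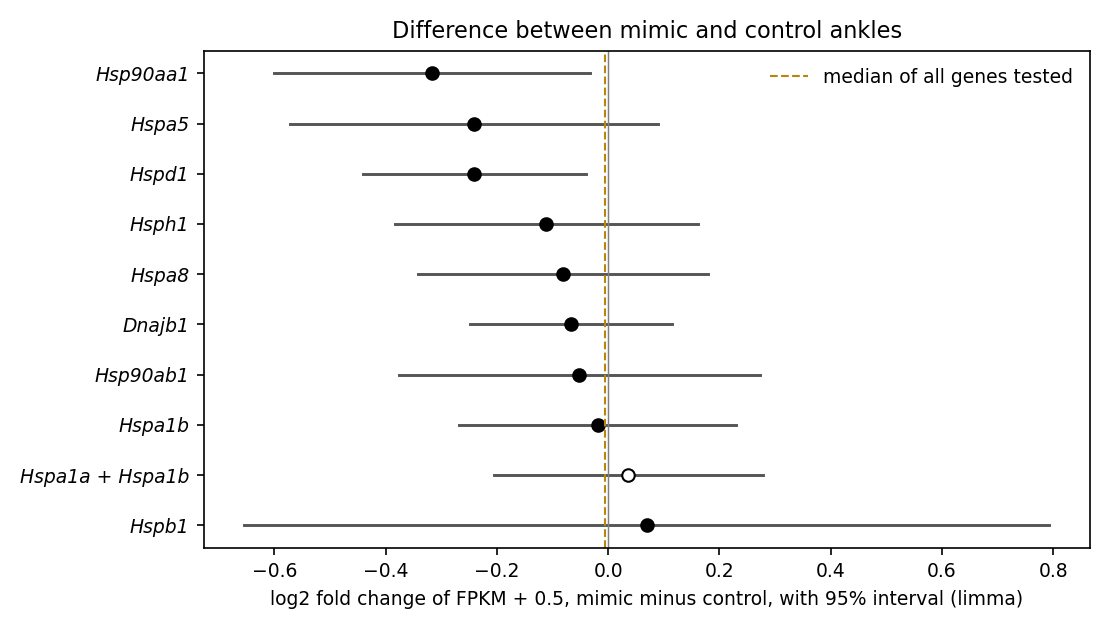
log2 fold change of FPKM + 0.5 (mimic minus control, horizontal axis) with its 95% interval from limma for the 9 genes tested (filled points) and for the sum of Hspa1a and Hspa1b (open point); the dashed line is the median of all genes tested. The intervals of Hsp90aa1 and Hspd1 lie below 0 before adjustment over all genes, and that of Hspb1 is the widest.

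Hspd1, the Hsp60 chaperonin of the mitochondrial matrix, was the 1 gene of the 10 whose groups were separate. It was at 38.7, 41.7, 44.8 and 45.7 FPKM in mimic ankles and at 47.0, 48.9 and 55.8 FPKM in control ankles. The highest mimic library lay just under the lowest control library. The means were 42.7 ± 3.21 FPKM (SD, n = 4) in mimic ankles and 50.6 ± 4.61 FPKM (SD, n = 3) in control ankles, a log2 fold change of -0.24 (± 0.09 SE; adjusted p = 0.233 by limma). Over the alternative settings this adjusted p ran from 0.111 to 0.602 and the direction held. Hspe1, the co-chaperonin that closes the Hsp60 chamber, has the same heat shock element of 4 units and was at 76.2, 74.9, 73.0 and 71.2 FPKM in mimic ankles and at 80.5, 71.4 and 82.7 FPKM in control ankles. For Hspe1 the groups overlapped (-0.08 on the log2 scale with an SE of 0.07, limma adjusted p = 0.545). Hspa9, the mitochondrial Hsp70, stood below the controls in all 4 mimic libraries, with means of 71.8 ± 3.41 FPKM (SD, n = 4) in mimic ankles and 78.3 ± 3.99 FPKM (SD, n = 3) in control ankles and a limma adjusted p of 0.351. Over the list of 11 other mitochondrial chaperones and proteases, 4 means were higher and 7 lower in mimic ankles, 0 passed at the adjusted or the unadjusted p of 0.05, and the median log2 fold change was -0.0092. Of these 11 genes, 6 were highest in the 3 libraries with most muscle marker RNA, against 10.6% of all genes tested.

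Hsp90aa1 and Hsp90ab1, the more inducible and the constitutive Hsp90 of the cytosol, did not follow each other between libraries. Hsp90aa1 was at 31.0, 29.3, 35.3 and 31.9 FPKM in mimic ankles and at 32.5, 42.91 and 44.98 FPKM in control ankles. Control replicates 3 and 5 stood above every other library, and control replicate 2 lay within the mimic range. The means were 31.9 ± 2.5 FPKM (SD, n = 4) in mimic ankles and 40.1 ± 6.71 FPKM (SD, n = 3) in control ankles, with a log2 fold change of -0.32 (± 0.12 SE; adjusted p = 0.253 by limma). Without control replicate 2 the log2 fold change was -0.46 with an adjusted p just under the threshold of 0.05, and this was the 1 call among the 10 genes in any setting, where 318 genes of the whole table were called. Over all settings the adjusted p of Hsp90aa1 ran from just under 0.05 to 0.630.

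Hsp90ab1 was at 426, 542, 457 and 501 FPKM in mimic ankles and at 603, 449 and 454 FPKM in control ankles. Its groups overlapped, with control replicate 2 highest (-0.05 on the log2 scale with an SE of 0.14, limma adjusted p = 0.856), and its direction turned under some settings. It was more abundant than 99.2% of the genes tested and, per length, exceeded Hsp90aa1 by 13.7, 18.5, 13.0 and 15.7 times in mimic libraries and by 18.6, 10.5 and 10.1 times in control libraries. The 2 lowest ratios were those of control replicates 3 and 5. Among 11 co-chaperones of Hsp90, 10 means were lower and 1 higher in mimic ankles, 1 was lower at an unadjusted limma p of 0.05, a share near the background of 10.1%, and the median log2 fold change was -0.05. That gene was Stip1, which links Hsp70 to Hsp90, at 32.4, 35.4, 35.8 and 36.8 FPKM in mimic ankles and at 38.1, 40.9 and 44.1 FPKM in control ankles. The Stip1 groups were separate (-0.22 on the log2 scale with an SE of 0.07, adjusted p = 0.213). Ppid, a cyclophilin that binds Hsp90, had a mimic range of 21.0 to 23.0 FPKM and a control range of 23.5 to 27.2 FPKM, without overlap.

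Hspa5, known as BiP, the Hsp70 of the ER and the sensor-binding chaperone of the unfolded protein response, was lower on average in mimic ankles without passing the test. It was at 235, 221, 267 and 268 FPKM in mimic ankles and at 235, 310.5 and 341 FPKM in control ankles. As for Hsp90aa1, control replicates 3 and 5 stood above the rest, and control replicate 2 lay among the mimic libraries. The means were 248 ± 23.1 FPKM (SD, n = 4) in mimic ankles and 296 ± 54.7 FPKM (SD, n = 3) in control ankles, with a log2 fold change of -0.24 (± 0.14 SE; adjusted p = 0.397 by limma). With the muscle marker level as a covariate the log2 fold change was -0.12.

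Most of the other ER genes had the same libraries on top. Of 23 genes for ER chaperones and the unfolded protein response, 16 were highest in control replicates 3 and 5, the 2 libraries that were highest for Hspa5, against 19.5% of all genes tested. This order was looked for after the values of Hspa5 were seen and is a description. An ER stress element was found in the promoters of 6 of the 18 genes of this list with an entry (Calr, Canx, Creld2, Dnajc3, Hsp90b1 and Pdia6), and all 6 were among the 16. Pdia3, Pdia4, P4hb, Xbp1, Ern1, Eif2ak3 and Dnajb11 had an entry without the element and were among the 16 as well. Herpud1, Ddit3, Dnajb9, Atf4 and Sdf2l1 had an entry without it and were not. Whether the element bears on the order of the libraries was not tested. Canx, a lectin chaperone, and Pdia6, a disulfide isomerase, are shown for comparison with Hspa5, with the element in capitals.
Canx, chr11:50325790-50325828, minus strand: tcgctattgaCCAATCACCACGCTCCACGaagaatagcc
Pdia6, chr12:17266481-17266519, plus strand: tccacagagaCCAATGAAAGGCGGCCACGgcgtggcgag
Neutrophil markers (7 of 9) and cell division genes (8 of 8) had the same 2 libraries on top. Summed, the neutrophil markers reached 1333 to 3406 FPKM in mimic ankles and 3135 to 6316 FPKM in control ankles, and the cell division genes 81.7 to 102 FPKM in mimic ankles and 104 to 152 FPKM in control ankles. S100a8 and S100a9 made up most of the neutrophil sum. Camp and Ngp did not have these 2 libraries on top. Their log2 fold changes were -0.013 and -0.15, against -0.61 (Ly6g) to -1.43 (Cxcr2) for the other neutrophil markers. Plasma cell markers, of a cell type rich in ER, summed to 91.8 to 117 FPKM in mimic ankles and 101 to 114 FPKM in control ankles. Most of this sum was Sdc1 (72.9 to 101 FPKM in mimic ankles and 85.8 to 101 FPKM in control ankles). The log2 fold change was -0.10 for Sdc1 and -0.54 for Prdm1, against 0.43 for Jchain and 0.39 for Mzb1. The mean was higher in mimic ankles for 5 of the 7 markers, so the sum does not give the level of this cell type. The part of these cell types in the Hspa5 values was not tested.

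Across the 23 ER genes, 19 means were lower and 4 higher in mimic ankles. The median log2 fold change was -0.15, and -0.05 with the muscle covariate. None passed at the adjusted p of 0.05. At an unadjusted limma p of 0.05, 2 were lower and 2 were higher, a share no larger than the background of 17.6%. Those lower were Atf6, a sensor of the unfolded protein response, at 11.1 ± 0.240 FPKM (SD, n = 4) in mimic ankles and 12.4 ± 0.330 FPKM (SD, n = 3) in control ankles, and Manf, a secreted ER stress protein. Those higher were Herpud1, which takes part in the degradation of ER proteins, and Ddit3, the transcription factor CHOP of prolonged ER stress. Herpud1 was at 53.0, 54.9, 52.4 and 50.6 FPKM in mimic ankles and at 49.8, 43.8 and 46.3 FPKM in control ankles, so that its groups were separate in the direction opposite to Hspa5 (0.18 on the log2 scale with an SE of 0.06, limma adjusted p = 0.232). Ddit3 averaged 27.3 ± 2.62 FPKM (SD, n = 4) in mimic ankles and 22.0 ± 3.76 FPKM (SD, n = 3) in control ankles, a log2 fold change of 0.31.

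**Figure D3:**
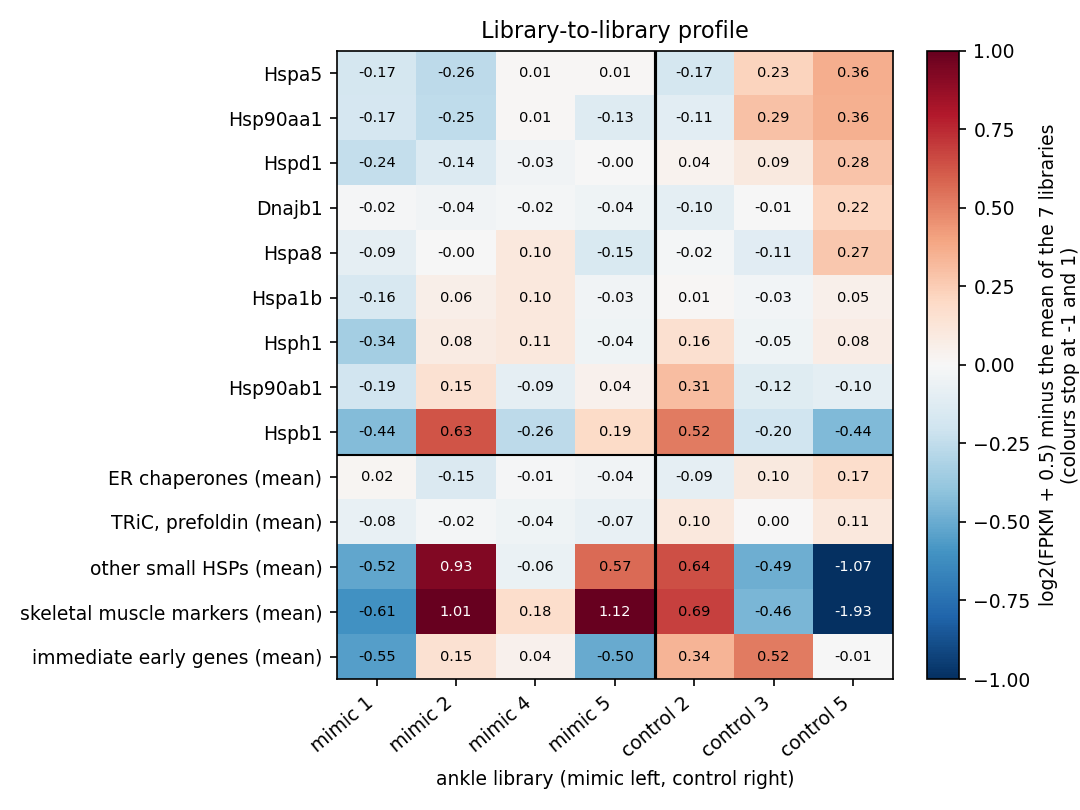
log2(FPKM + 0.5) of each gene (upper rows) or list mean (lower rows) minus the mean of the 7 libraries, with mimic libraries left and control libraries right of the black line. Hspa5 and Hsp90aa1 are highest in control replicates 3 and 5 (0.23 and 0.36 for Hspa5), while Hspb1, the other small heat shock proteins and the muscle markers are highest in mimic replicates 2 and 5 and control replicate 2.

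Hspb1, the small heat shock protein Hsp25 that binds unfolding proteins without ATP, varied more between ankles of a group than between groups. It was at 32.2, 67.8, 36.4 and 49.9 FPKM in mimic ankles and at 63.0, 38.1 and 32.0 FPKM in control ankles. High and low libraries occurred in both groups. The means were 46.6 ± 16.0 FPKM (SD, n = 4) in mimic ankles and 44.3 ± 16.4 FPKM (SD, n = 3) in control ankles, with a log2 fold change of 0.07 (± 0.31 SE; adjusted p = 0.919 by limma) and a 95% interval of the fold from 0.635 to 1.73. Its within-group SD of 0.49 on the log2 scale exceeded that of 94.5% of the genes tested.

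The 3 libraries highest for Hspb1 were mimic replicates 5 and 2 and control replicate 2, which were also the 3 highest in the mean of the muscle markers. Hsp90ab1 had the same 3 libraries on top, as did 11 of 12 muscle markers. The libraries were picked by the mean of those markers, so the count of markers was largely fixed in advance. All 6 of the other small heat shock proteins measured (Cryab, Hspb2, Hspb3, Hspb6, Hspb7 and Hspb8) had these 3 libraries on top as well, against 10.6% of all genes tested. Several of these small heat shock proteins are known as proteins of striated muscle. Hspb6 was at 20.6, 69.5, 32.5 and 70.8 FPKM in mimic ankles and at 39.3, 28.5 and 10.8 FPKM in control ankles, a range that overlapped between groups. All 6 had a higher mean in mimic ankles, 0 passed the test at the adjusted or the unadjusted p, and their median log2 fold change was 0.49. With the muscle marker level as a covariate this median was -0.10 and the log2 fold change of Hspb1 was -0.35, so that both changed direction.

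**Figure D4:**
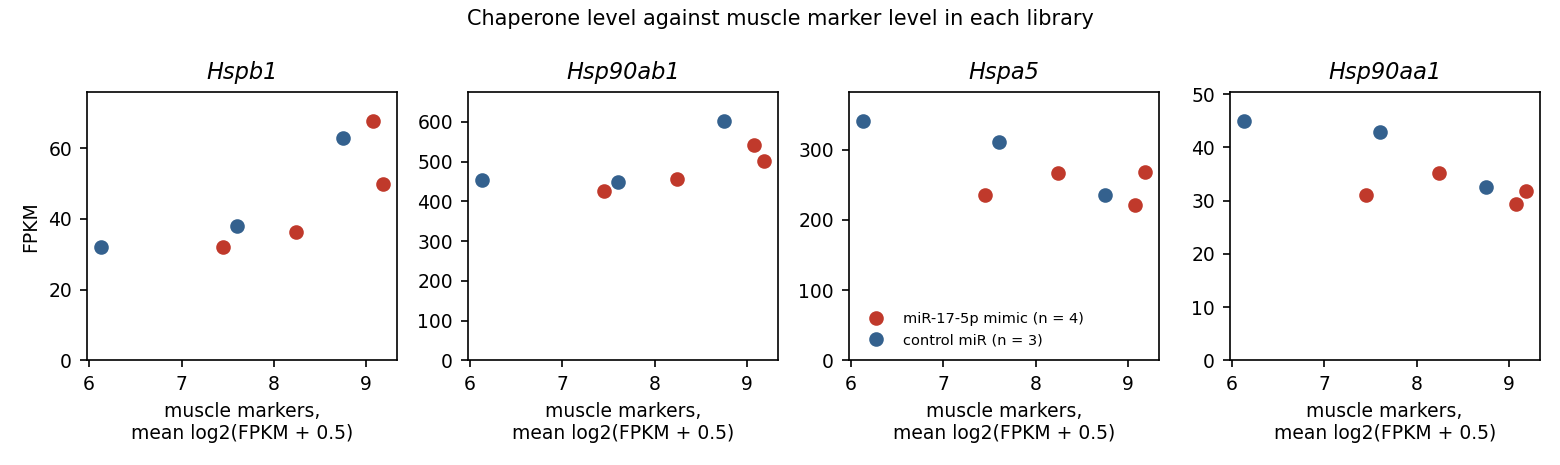
FPKM of 4 chaperone genes (vertical axes, from 0) against the mean log2(FPKM + 0.5) of 12 skeletal muscle markers, 1 point per library. Hspb1 and Hsp90ab1 are highest in the 3 libraries with most muscle marker RNA, while Hspa5 and Hsp90aa1 are highest in the control libraries with less of it.

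Genes of the cytosolic chaperonin TRiC, which folds actin and tubulin, and of its partner prefoldin were mostly lower in mimic ankles. Of 14 genes measured 12 means were lower and 2 higher, with a median log2 fold change of -0.15. At the adjusted p none passed, the lowest adjusted p being 0.174. At an unadjusted limma p of 0.05, 6 of the 14 were lower, against the background of 10.1%, and in the same 6 (Cct2, Cct3, Cct5, Cct6a, Cct7 and Cct8) every mimic library lay below every control library, as in 8.84% of all genes tested. Cct3 was at 73.2, 76.0, 78.5 and 72.8 FPKM in mimic ankles and at 87.7, 86.8 and 95.5 FPKM in control ankles. Cct6a was at 69.8, 72.3, 77.6 and 72.9 FPKM in mimic ankles and at 84.0, 86.4 and 91.3 FPKM in control ankles. For both, control replicate 2 lay with the other controls, unlike for Hspa5 and Hsp90aa1. The log2 fold changes were -0.26 for Cct3 (SE 0.06) and -0.25 for Cct6a (SE 0.06). The summed cell division genes were likewise lower in every mimic library than in the controls, and their part in the TRiC values was not tested.

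The remaining partners of the Hsp70 system were counted in the same way, against backgrounds of 7.48% of genes higher and 10.1% lower at the unadjusted p. Of the 7 other Hsp70 and Hsp110 genes, 4 means were higher and 3 lower in mimic ankles, and 1 in each direction passed at the unadjusted p. These were Hspa12b, an endothelial Hsp70 relative, at 13.1 ± 0.925 FPKM (SD, n = 4) in mimic ankles and 11.0 ± 0.799 FPKM (SD, n = 3) in control ankles, and Hspa14, a ribosome-bound one, at 18.9 ± 0.678 FPKM in mimic ankles and 21.0 ± 1.34 FPKM in control ankles. Of 10 J-domain genes 6 means were higher and 4 lower, and of 9 nucleotide exchange factors and partners 5 were higher and 4 lower, with 0 past the unadjusted p in either list. Dnaja4 and Dnajb4 had the smallest p of the J-domain genes, and St13 and Bag2 those of the exchange factors and partners. Hsf1, the main activator of the heat shock response, averaged 20.4 ± 1.76 FPKM (SD, n = 4) in mimic ankles and 20.7 ± 0.551 FPKM (SD, n = 3) in control ankles. The log2 fold change was 0.12 for Hsf2 and 0.16 for Hsf4, and 0 of the 3 factors passed.

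**Figure D5:**
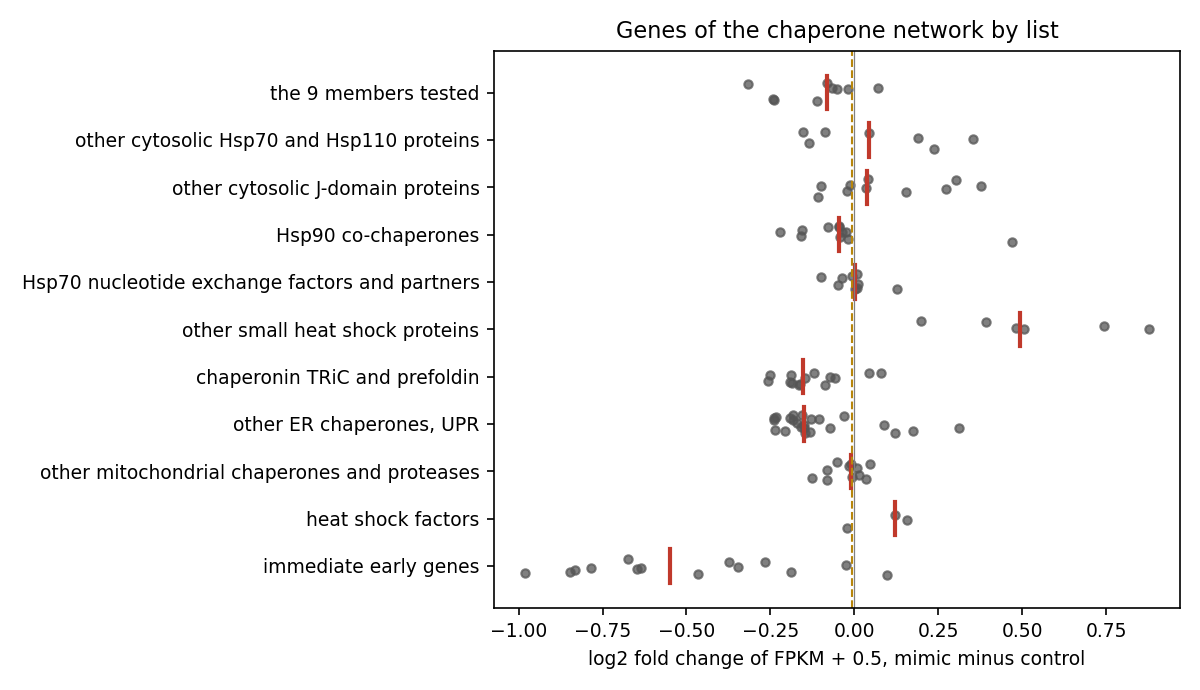
log2 fold change (mimic minus control, horizontal axis) of each gene by list, with a red bar at the list median and a dashed line at the median of all genes tested. The bars of TRiC with prefoldin and of the ER list lie at -0.15, that of the other small heat shock proteins at 0.49 and that of the immediate early genes at -0.55.

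Immediate early genes, the first transcripts induced by growth factors, cytokines and tissue handling, were mostly lower on average in mimic ankles. Of 14 genes 13 means were lower in mimic ankles, 6 at an unadjusted limma p of 0.05 against the background of 10.1%, and none at the adjusted p. Their median log2 fold change was -0.55, against a median of -0.082 for the 9 chaperones tested. Single chaperones ran from -0.32 for Hsp90aa1 to 0.07 for Hspb1, with -0.018 for Hspa1b and -0.066 for Dnajb1. Junb, a subunit of AP-1, was at 61.7, 92.7, 85.8 and 78.9 FPKM in mimic ankles and at 114, 168 and 145 FPKM in control ankles, without overlap (-0.83 on the log2 scale with an SE of 0.17, limma adjusted p = 0.174). Without control replicate 2 its log2 fold change was -0.98 and its adjusted p by limma 0.0470, under the threshold, while over all settings that p ran from 0.0470 to 0.524. Ier2, another such gene, was at 28.6, 34.6, 29.6 and 28.4 FPKM in mimic ankles and at 42.9, 58.3 and 43.0 FPKM in control ankles (-0.65 on the log2 scale with an SE of 0.13, adjusted p = 0.173). Whether this list differs from the heat shock genes was not tested. Adipocyte markers were at 1137 to 1485 FPKM in mimic ankles and at 582 to 1028 FPKM in control ankles, and erythroid markers at 77.2 to 555 FPKM in mimic ankles and 51.5 to 205 FPKM in control ankles.

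For the 9 genes tested, profiles over the 7 libraries were compared by the root mean square (RMS) difference of centred log2 values, where 0 means the same profile. Hspa5 and Hsp90aa1 were most alike (0.066), and Hsp90aa1 and Hspb1 most unlike (0.573). Over all genes tested, the nearest to Hspa5 were Amd1 (0.037), Cad (0.040) and Hyou1 (0.043), the last of which encodes an ER chaperone of the Hsp110 type. For Hspd1 they were Zfp462 (0.029), Hmgn5 (0.034) and Stip1 (0.037). In nearness to Hspd1 the 14 TRiC and prefoldin genes ranked from 38 (Cct6a) to 9444 (Pfdn5) of 13417, and Hspe1 ranked 2571. For Hspa1b the nearest were Nars2 (0.041), Socs6 (0.042) and a gene without a symbol (0.044). For each of these genes some neighbours were replaced when certain libraries were left out, and also under some settings that kept all libraries.

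By level, the genes fell in steps. Hsp90ab1 was above every other in each library, and Hspa5 and Hspa8 followed with overlapping ranges of 221 to 341 FPKM and 205 to 275 FPKM. Hspd1 (38.7 to 55.8 FPKM), Hspb1 (32.0 to 67.8 FPKM) and Hsp90aa1 (29.3 to 44.98 FPKM) overlapped. Dnajb1 (16.3 to 20.4 FPKM) and Hsph1 (13.0 to 18.6 FPKM) overlapped as well, and Hspa1b (1.06 to 1.37 FPKM) lay above Hspa1a (0.429 to 0.780 FPKM).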

How the data were processed

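The authors deposited 1 FPKM value for every gene in every library, beside the gene's length, as the file headers name them. Among tools, the submitters' processing notes list STAR 2.5.2b, bcl2fastq 2.20, DESeq2 1.14.1, Subread and featureCounts without saying what each did; the builds listed are GRCm38 and mm10. Strand, read length and the counting of reads with several matches are not given, so overlapping genes and near copies are uncertain. A RefSeq symbol was matched to 25275 of the 27179 Entrez numbers. FPKM times length gave whole reads (within 0.01) for 100% of values, which set the depth and served an alternative with limma-voom. Differences were tested with limma 3.58.1 under R 4.3.3 (lmFit, eBayes with trend) on log2(FPKM + 0.5) for genes that averaged 1 FPKM or more, 2-sided and with Benjamini-Hochberg adjustment over 13418 genes, after a run on simulated data. The members, lists and tests were chosen with earlier results of these data known. Genes named by rule were the 10 members, the sum of Hspa1a and Hspa1b, from each related list the 2 with the smallest p, and for Hspa1b, Hspa5 and Hspd1 the 3 nearest profiles; other genes were named after their values were seen. Alternatives changed the pseudocount, filter, scaling, model, covariates and libraries. Figures were drawn with matplotlib 3.10.9.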

Additional observations from a re-analysis of the deposited data

How the results depend on the processing

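Over 19 alternative settings Hspd1, Hspa5 and Hsp90aa1 kept a lower mean in mimic ankles, and the causes of the shifts below were not tested. The number of genes called was 1 with no filter, and 0 to 318 with a library left out (318 without control replicate 2, 2 without mimic replicate 5); for the chaperones it was 0 to 1. Log2 fold changes turned for the Hspa1a and Hspa1b sum (-0.053 with quantile normalization, -0.060 with the replicate block, -0.010 with the erythroid covariate, -0.028 to 0.072 with a library left out). With the muscle covariate they turned for Hspa8 (0.00034), Dnajb1 (0.015), Hspb1 (-0.35) and Bag2 (-0.048), and with the immediate early covariate for Hspa1b (0.066), Hsp90ab1 (0.043) and Hsph1 (0.035). Hsp90ab1 was at 0.019 with library weights. With a library left out the ranges were -0.056 to 0.033 for Hspa1b, -0.16 to 0.031 for Hspa8, -0.13 to 0.087 for Hsp90ab1, -0.13 to 0.023 for Dnajb1, -0.13 to 0.35 for Hspb1 and -0.017 to 0.36 for Hsf4.

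List medians moved with the muscle covariate to -0.19 for the chaperones, -0.045 for the other Hsp70 and Hsp110 genes, -0.075 for exchange factors and -0.047 for the ER list, and with their own covariate to -0.042 for immediate early genes. That last covariate is the mean of the same immediate early genes, so a shift of their median toward 0 was fixed in advance. The median of the other Hsp70 and Hsp110 genes was -0.13 at a mean of at least 5 FPKM, 0.15 with the replicate block and -0.073 to 0.15 with a library left out; that of the heat shock factors was -0.017 to 0.21. Same-numbered libraries correlated at 0.54 (replicate 2) and -0.43 (replicate 5), and 2 such pairs were too few to take the numbers as pairing the ankles; with the block 0 genes were called and Hspd1 had an adjusted p of 0.524. Of the 3 nearest profiles, 0 to 1 stayed for Hspa1b, 0 to 3 for Hspa5 and 0 to 2 for Hspd1 with a library left out; with all libraries, Hspa1b kept 0 with no filter and 1 with a pseudocount of 0.1, quantile normalization or limma-voom, and Hspa5 kept 1 with quantile normalization. Hspa1a rests on 33 to 64 reads, the value depth limits most.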
